A study of Mus musculus with 12 samples.

Results

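The 10 genes of the fat-cell programme described here were followed through 4 groups of 3T3 cells. They were chosen by symbol from the deposited table, and all 10 had 1 row each among its 32544 rows. Of the 10, 8 passed the filter on low counts, which 14279 rows passed in all, and Adipoq and Cd36 did not. 3T3 cells are an established mouse fibroblast line, and RNA was measured in bulk with 3 libraries per group. The Untreated group received no vesicles, and its labels give no time in culture. The other groups received extracellular vesicles (EVs), small membrane-enclosed particles that cells shed, for 24 h; the EVs came from MDA-MB-468 cells, an established line of human breast cancer. The donor cells were a shCon control line, a shCr line with knockdown of the cell-surface protein CRIPTO, or a CrOE line that overexpressed CRIPTO. No group received EVs from a separate control line for overexpression, so CrOE EVs are compared with shCon EVs. The labels name neither the 3T3 subline nor an EV dose, a vesicle-free mock treatment or a separate culture for each library, so p-values measure the spread between these libraries, which may be technical. The 3 libraries called CrOE EV carry column names with the protein's name alone and were assigned by elimination, since the knockdown libraries have columns named shCr.

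Fat-cell formation runs through a cascade of transcription factors. C/EBPβ and C/EBPδ, encoded by Cebpb and Cebpd, are induced first, and KLF4 is one of the early factors that acts on Cebpb. PPARγ (Pparg) and C/EBPα (Cebpa) then take over, sustain each other's expression and switch on the genes of fatty acid uptake, transport and storage. PPARγ binds DNA as a partner of RXRα. Some 3T3 sublines complete this course and fill with lipid when they are given a hormone cocktail, and the labels describe no such treatment here.

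The count of Pparg sums transcripts from all of its start sites, which RefSeq places at 3 positions on chromosome 6, on the plus strand. Their windows are shown because Pparg is the central member and its fall, described below, cannot be split by start site from counts per symbol. Windows run from 250 bases before a start to 50 bases after it, on GRCm38.p6. Positions are chr6:115360894-115361193 for start 1, chr6:115362099-115362398 for start 2 and chr6:115421816-115422115 for start 3. The window of Plin2, the lipid droplet gene that rose in the same libraries, lies on the minus strand of chromosome 4 at chr4:86670010-86670309. Capitals mark every match, on either strand, to TTGCNNAA (C/EBP type), to TATAAA (a core promoter element) or to a PPAR-RXR type repeat, which is AGGNCA followed in the same direction by a second copy after 1 base. No sequence below holds overlapping matches.
Pparg start 1: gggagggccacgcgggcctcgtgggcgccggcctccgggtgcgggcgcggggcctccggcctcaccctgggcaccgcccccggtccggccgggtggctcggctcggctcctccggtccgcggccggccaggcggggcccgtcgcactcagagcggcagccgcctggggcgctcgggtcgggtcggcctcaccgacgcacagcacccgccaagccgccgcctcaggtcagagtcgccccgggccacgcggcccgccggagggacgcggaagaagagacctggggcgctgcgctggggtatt
Pparg start 2: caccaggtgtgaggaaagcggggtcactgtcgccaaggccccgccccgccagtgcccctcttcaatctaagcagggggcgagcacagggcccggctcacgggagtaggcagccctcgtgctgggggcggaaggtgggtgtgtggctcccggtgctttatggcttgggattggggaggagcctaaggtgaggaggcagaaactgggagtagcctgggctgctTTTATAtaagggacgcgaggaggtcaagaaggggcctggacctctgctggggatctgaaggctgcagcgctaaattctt
Pparg start 3: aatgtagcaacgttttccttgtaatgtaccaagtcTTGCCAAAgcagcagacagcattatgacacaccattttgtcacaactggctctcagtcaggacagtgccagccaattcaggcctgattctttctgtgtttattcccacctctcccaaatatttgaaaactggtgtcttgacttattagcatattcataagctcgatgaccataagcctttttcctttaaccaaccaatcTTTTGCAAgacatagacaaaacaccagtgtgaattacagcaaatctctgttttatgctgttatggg
Plin2: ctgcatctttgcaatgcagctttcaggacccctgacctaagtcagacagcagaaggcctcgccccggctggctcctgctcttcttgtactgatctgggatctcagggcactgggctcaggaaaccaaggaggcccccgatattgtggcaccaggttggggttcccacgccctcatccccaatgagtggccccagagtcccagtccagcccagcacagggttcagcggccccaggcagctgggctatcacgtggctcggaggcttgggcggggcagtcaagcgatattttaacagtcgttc

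In start 3 of Pparg, TTGCCAAA lay 215 to 208 bases before the start and TTTTGCAA, the C/EBP type on the opposite strand, 16 to 9 bases before it. In start 2, TTTATA, which reads TATAAA on the opposite strand, lay 29 to 24 bases before the start. Variants of TATAAA were not searched on either strand. The C/EBP type occurred in 10.8% of all 32851 promoter windows of the RefSeq table, TATAAA on either strand in 13.6% and the PPAR-RXR type repeat in 0.38%. RefSeq windows matched 7 of the 10 members by symbol and gave 9 windows. Of these, 1 held the C/EBP type, 3 held TATAAA on either strand and 0 the PPAR-RXR type repeat. Beside start 2 of Pparg, TATAAA lay 30 to 25 bases before the start in Cebpa. In Cebpb it lay past the start, at bases 22 to 27. The matches are a description of these letters and not evidence of binding. GC content was 80.3%, 62.7% and 40.3% in starts 1 to 3 of Pparg and 60.7% in Plin2.

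Library totals ran from 25960054 to 37774020 estimated counts. Levels below are CPM, counts brought to a common library total after TMM adjustment, and they compare 1 gene across groups, never gene with gene. CPM are shares of a library and not amounts per cell, and TMM assumes that most genes do not change. Against Untreated cells 73.7% of genes tested were called with CrOE EVs. Levels and folds there depend on that assumption, which was not tested. CrOE EV libraries stood apart over all genes, at 109 to 113 on a first principal component that held 73.7% of the variance, against -41.8 to -29.7 in the other 9. Replicate 1 of the shCr EV group also stood apart, at 42.0 on the third component (4.14% of the variance) against 1.47 and -5.05 in its replicates. Results of single members that depended on that library are given with and without it. Counts of calls are given with it unless stated. For shCr EVs against Untreated cells, leaving out 1 library of either group gave 4254 to 6698 calls over all genes, against 5320 with all libraries. All 10 fibroblast markers passed the filter, although Lum, at 93 to 122 counts in Untreated libraries, had at most 1 count in a CrOE EV library and was not detected there. Their summed level was 15769 to 16726 CPM in Untreated cells, 17710 to 17873 with shCon EVs, 12223 to 13956 with shCr EVs and 4993 to 5185 with CrOE EVs. The markers did not move as one with shCon or shCr EVs. With shCon EVs Col1a1 rose to 145% and Pdgfrb to 126% of the Untreated mean. Pdgfra (60.3%), Thy1 (67.5%), Dcn (67.6%) and Loxl1 (73.7%) fell there (all calls, edgeR). With shCr EVs Pdgfrb (133%) and Lum (146%) were called higher, and Col1a1, Col1a2, Col3a1, Pdgfra, Thy1 and Loxl1 were called lower. With CrOE EVs the means of all 10 markers were below those of Untreated cells. Dcn was at 9.22% of the Untreated mean, Pdgfra at 11.2%, Col1a1 at 15.9%, Thy1 at 22.1% and Col3a1 at 29.3%. Pdgfrb was at 31.3%, Vim at 44.2%, Loxl1 at 45.2% and Col1a2 at 45.3%, and Lum was not detected. The part of these shifts in the results was not tested.

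Pparg and Fabp4 fell and Klf4 and Plin2 rose with all 3 kinds of EVs, and each of these shifts was largest with CrOE EVs. Lpl fell to 3.18% of its Untreated level with CrOE EVs and to 70.3% with shCon EVs. Cebpd fell with the same EVs as Lpl, and Cebpa was called nowhere. The largest difference of Cebpb was 0.23 on the log2 scale, a call between CrOE and shCr EVs. With shCon EVs, 6 of the 8 tested passed against Untreated cells (2 higher and 4 lower), where 38.1% of all genes tested were called (18.0% higher and 20.2% lower). Libraries of those groups did not overlap for 8 of the 8, against 54.2% of all genes. For shCr EVs the calls were 5 (2 higher and 3 lower), against 37.3% of all genes (18.4% higher and 18.8% lower), and 5 genes did not overlap, against 41.9%. For CrOE EVs they were 6 (2 higher and 4 lower), against 73.7% of all genes (36.7% higher and 37.0% lower), and 6 did not overlap, against 77.7%. Those last counts lay near the background. With CrOE EVs 6 of the 8 had a log2 fold change beyond 1 in either direction, against 30.5% of all genes. With shCon EVs only Pparg did, against 7.44% of all genes, and with shCr EVs only Klf4, against 7.59%. The members were chosen with earlier results of these data known, so these shares are a description and not a test. The median log2 fold change of the 8 was -0.39, -0.14 and -0.76 for shCon, shCr and CrOE EVs, beside 0.0069, 0.020 and 0.0078 over all genes. These comparisons share the Untreated libraries.

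Between EV groups, 4 of the 8 were called for shCr against shCon EVs, all higher with shCr EVs (Pparg, Cebpd, Lpl and Plin2). Of all genes 8.73% were called there, 5.22% higher and 3.51% lower, and 5 of the 8 did not overlap, against 28.0%. Only 2 of the 8 were called without shCon EV replicate 1, without shCon EV replicate 2 or in a fit restricted to the 2 groups. Without shCr EV replicate 1, Lpl was no longer called, Klf4 was called higher and Fabp4 was called lower with shCr EVs. CrOE against shCon EVs gave 7 calls (3 higher and 4 lower), against 72.6% of all genes (36.5% higher and 36.1% lower), and 8 genes did not overlap, against 80.5%. CrOE against shCr EVs gave 7 calls (3 higher and 4 lower), against 73.9% (36.9% higher and 37.0% lower), and 7 did not overlap, against 74.0%. Spread within groups was smallest for Lpl with shCon EVs, at a coefficient of variation of 0.626%, and largest for Fabp4 with shCr EVs, at 23.8%.

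Pparg fell in every EV group. Its level was 12.6, 13.0 and 13.5 CPM in Untreated cells, 5.90, 5.21 and 5.76 with shCon EVs, 8.60, 8.84 and 7.87 with shCr EVs, and 2.03, 2.07 and 2.13 with CrOE EVs. No library of one group overlapped a library of another, and the order was Untreated, shCr EV, shCon EV and CrOE EV from high to low. Against Untreated cells the mean fell to 43.1% with shCon EVs (log2 fold change -1.21, SE 0.083, adjusted p = 2.4e-07, from edgeR's quasi-likelihood F-test adjusted by Benjamini-Hochberg over all genes, as throughout). With shCr EVs it fell to 64.6% (log2 fold change -0.63, SE 0.080, adjusted p = 4.6e-05, edgeR). The fall with CrOE EVs was to 15.9% (log2 fold change -2.65, SE 0.091, adjusted p = 2.8e-11, edgeR). Each pair of EV groups differed as well: Pparg was 1.50-fold higher with shCr than with shCon EVs (adjusted p = 0.00093, edgeR), 2.70-fold lower with CrOE than with shCon EVs (adjusted p = 1.9e-08) and 4.05-fold lower with CrOE than with shCr EVs (adjusted p = 4.1e-10). In bulk RNA, fewer cells expressing a gene and less of its RNA per cell cannot be told apart.

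Cebpa, the partner of Pparg in the late step, passed the test in none of the 6 comparisons. It stood at 4.50, 3.66 and 4.71 CPM in Untreated cells, 3.65, 3.49 and 3.49 with shCon EVs, 4.09, 3.65 and 3.76 with shCr EVs, and 4.60, 3.99 and 3.93 with CrOE EVs. Untreated libraries overlapped those of shCr and CrOE EVs and lay just above those of shCon EVs. Between CrOE EVs and Untreated cells the 95% interval of the log2 difference was -0.30 to 0.21 (adjusted p = 0.75, edgeR), and between shCon EVs and Untreated cells it was -0.54 to -0.014 (adjusted p = 0.091). The lower level with shCon EVs was a call without Untreated replicate 2 (adjusted p = 0.025, edgeR). Exons of Cebpa overlap an opposite-strand gene in GENCODE M21, and the strand setting of the counting is not given in the sources used here.

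**Figure D1:**
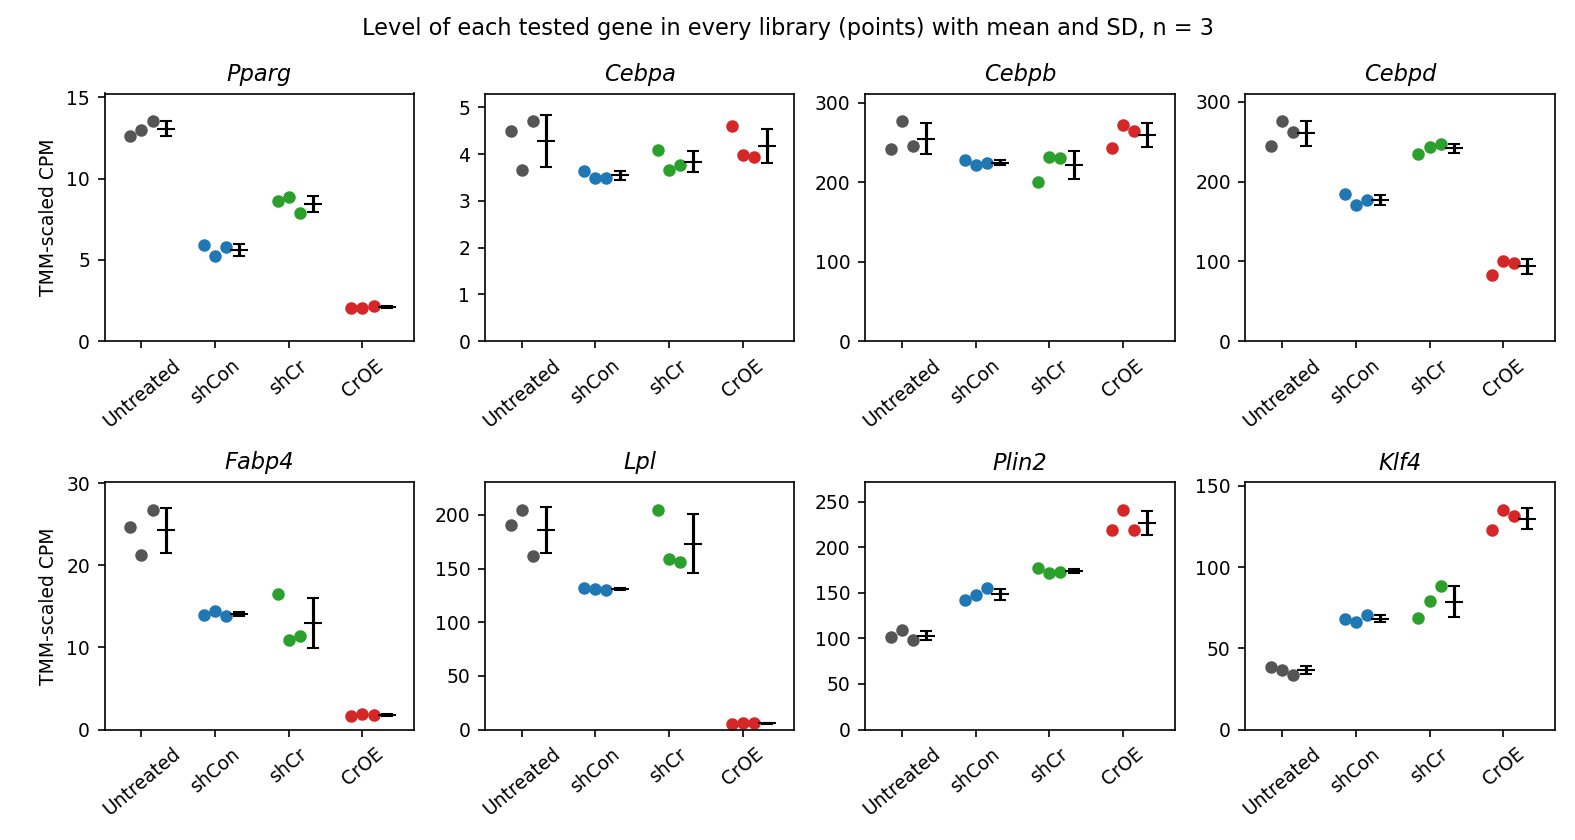
TMM-scaled CPM (vertical axes, linear and starting at 0, each with its own range) of the 8 tested genes in every library, with 3 points per group and the mean and SD beside them. Pparg, Fabp4 and Lpl sat lowest in the CrOE EV libraries, Plin2 and Klf4 highest there, and Cebpa and Cebpb at nearly one level throughout.

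The early factors went in different directions. Cebpb, which opens the cascade, was at 242, 277 and 245 CPM in Untreated cells, 228, 222 and 224 with shCon EVs, 201, 231 and 231 with shCr EVs, and 242, 272 and 264 with CrOE EVs. The CrOE EV and Untreated libraries overlapped, and the largest difference of group means was that between CrOE EVs and shCr EVs (log2 fold change 0.23, SE 0.071, adjusted p = 0.0098, edgeR). It was also higher with CrOE than with shCon EVs (0.21, adjusted p = 0.017, edgeR), a call that was lost without shCon EV replicate 2 (adjusted p = 0.054), shCon EV replicate 3 (0.051) or CrOE EV replicate 2 (0.070). Its fall with shCr EVs against Untreated cells (-0.20, adjusted p = 0.039, edgeR) was lost without Untreated replicate 2 (adjusted p = 0.14), without shCr EV replicate 1 (0.086) and in a fit restricted to the 2 groups (0.13). The lower level with shCon EVs was no call (-0.18, adjusted p = 0.061, edgeR) but was one without Untreated replicate 1 (adjusted p = 0.0496), with the replicate number as a block (0.034) and in a fit restricted to the 2 groups (0.029). Between CrOE EVs and Untreated cells the 95% interval of the log2 difference ran from -0.13 to 0.18.

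Cebpd, the other early C/EBP gene, fell with shCon and CrOE EVs. Its libraries were at 245, 276 and 261 CPM in Untreated cells, 184, 171 and 176 with shCon EVs, 235, 243 and 247 with shCr EVs, and 83.4, 100.1 and 97.5 with CrOE EVs. Only the Untreated and shCr EV libraries overlapped. The mean was 68.0% of Untreated with shCon EVs (log2 fold change -0.56, SE 0.069, adjusted p = 4.4e-05, edgeR) and 35.9% with CrOE EVs (-1.48, SE 0.071, adjusted p = 6.8e-10). With shCr EVs the difference from Untreated cells did not pass (-0.11, 95% interval -0.26 to 0.039, adjusted p = 0.24, edgeR), and Cebpd was 1.36-fold higher there than with shCon EVs (adjusted p = 0.0015). Exons of both Cebpb and Cebpd overlap genes on the opposite strand in GENCODE M21.

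Klf4, a zinc-finger factor of the first hours of fat-cell formation that also acts in many other programmes, rose in every EV group. It was at 38.7, 37.0 and 33.7 CPM in Untreated cells, 67.8, 66.5 and 70.5 with shCon EVs, 68.9, 79.2 and 88.2 with shCr EVs, and 123, 135 and 131 with CrOE EVs. All EV libraries lay above all Untreated libraries, and those of CrOE EVs lay above the rest. The log2 fold changes against Untreated cells were 0.90 (SE 0.085, adjusted p = 4.1e-06, edgeR) with shCon EVs, 1.11 (SE 0.085, adjusted p = 5.7e-07) with shCr EVs and 1.83 (SE 0.086, adjusted p = 5.4e-10) with CrOE EVs. With CrOE EVs Klf4 was 1.90-fold higher than with shCon EVs (adjusted p = 3.7e-07, edgeR) and 1.65-fold higher than with shCr EVs (adjusted p = 3.6e-06). The shCr and shCon EV libraries overlapped, and their difference did not pass (log2 0.21, adjusted p = 0.16, edgeR), although it did without shCr EV replicate 1 (0.29, adjusted p = 0.016).

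Among the genes that PPARγ and the C/EBPs switch on, Fabp4 encodes the fatty acid carrier of fat cells and macrophages. Fabp4 was at 24.7, 21.3 and 26.8 CPM in Untreated cells, 13.9, 14.4 and 13.9 with shCon EVs, 16.5, 11.0 and 11.4 with shCr EVs, and 1.65, 1.95 and 1.80 with CrOE EVs. Every EV library was below every Untreated library, and the CrOE EV libraries held 52 to 67 counts. It fell to 58.0% of Untreated with shCon EVs (log2 fold change -0.79, SE 0.14, adjusted p = 0.00062, edgeR), to 53.5% with shCr EVs (-0.91, SE 0.14, adjusted p = 0.00019) and to 7.42% with CrOE EVs (-3.75, SE 0.17, adjusted p = 3.4e-10). With CrOE EVs it was 7.80-fold lower than with shCon EVs (adjusted p = 4.3e-09, edgeR) and 7.16-fold lower than with shCr EVs (adjusted p = 5.7e-09). The shCr and shCon EV groups overlapped and did not differ by the test (log2 -0.12, 95% interval -0.42 to 0.18, adjusted p = 0.67, edgeR). Without shCr EV replicate 1, the high library of its group, Fabp4 was called lower with shCr than with shCon EVs (-0.33, adjusted p = 0.041, edgeR).

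Lpl encodes lipoprotein lipase, the secreted enzyme that frees fatty acids from circulating triglyceride. Lpl was at 191, 205 and 162 CPM in Untreated cells, 132, 131 and 130.2 with shCon EVs, 205, 159 and 156 with shCr EVs, and 5.36, 5.96 and 6.43 with CrOE EVs. The CrOE EV libraries were far below all others, the shCon EV libraries lay below the Untreated ones, and the shCr EV and Untreated libraries overlapped. Against Untreated cells Lpl was 31.4-fold lower with CrOE EVs (log2 fold change -4.97, SE 0.13, adjusted p = 3.0e-12, edgeR), the largest fold among the 8 genes. It fell less with shCon EVs, to 70.3% of Untreated (-0.51, SE 0.11, adjusted p = 0.0023, edgeR). With shCr EVs it was no call (-0.10, 95% interval -0.33 to 0.13, adjusted p = 0.48, edgeR), but it was called lower without shCr EV replicate 1 (-0.24, adjusted p = 0.026). Lpl was 22.1-fold lower with CrOE than with shCon EVs (adjusted p = 8.3e-12, edgeR) and 29.2-fold lower than with shCr EVs (adjusted p = 3.7e-12). Its higher level with shCr than with shCon EVs (log2 0.41, adjusted p = 0.033, edgeR) was lost without any 1 of the shCon EV replicates (adjusted p = 0.11 each), without shCr EV replicate 1 (log2 0.26, adjusted p = 0.061) and in a fit restricted to the 2 groups (adjusted p = 0.078).

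Fabp4 and Lpl are also macrophage genes. The 7 macrophage markers examined summed to 48.6 to 59.4 CPM in Untreated libraries, 82.2 to 92.7 with shCon EVs, 130 to 193 with shCr EVs and 4.74 to 6.03 with CrOE EVs. In the first 3 of these groups most of the sum was Lyz2, a lysozyme gene. Lyz2 was at 46.9 ± 4.86 CPM in Untreated cells, 78.0 ± 5.98 with shCon EVs, 146 ± 35.0 with shCr EVs and 1.25 ± 0.138 with CrOE EVs (SD, n = 3). Ptprc had at most 7 counts in a library, Fcer1g at most 11, and Adgre1 and Tyrobp at most 1. Csf1r was at 2.43 ± 0.0753 CPM in Untreated cells, 2.11 ± 0.452 with shCon EVs and 2.20 ± 0.0445 with shCr EVs. With CrOE EVs Csf1r was lower, at 1.00 ± 0.332 CPM (SD, n = 3), the direction of Fabp4 and Lpl there. Of the 7 markers only Lyz2, Cd68 and Csf1r passed the filter. With CrOE EVs the largest part of the sum was Cd68, a lysosomal glycoprotein gene, at 3.05 ± 0.418 CPM against 5.64 ± 1.72 in Untreated cells (log2 fold change -0.88, adjusted p = 0.0015, edgeR). Adgre1 and Tyrobp had 0 counts in all Untreated libraries. Against Untreated cells Lyz2 fell with CrOE EVs (log2 fold change -5.23, adjusted p = 7.5e-11, edgeR), as Lpl and Fabp4 did, but rose with shCon EVs (0.73, adjusted p = 0.0011) and shCr EVs (1.64, adjusted p = 1.4e-06), where Fabp4 fell. The part of the macrophage markers in these results was not tested. A share of 32.8% of the 31-base stretches in Lyz2 transcripts also occurs in 1 other gene.

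Plin2 encodes the perilipin that coats lipid droplets in most cell types, and it rose in every EV group. Its libraries were at 102, 109 and 98.7 CPM in Untreated cells, 142, 148 and 155 with shCon EVs, 177, 172 and 173 with shCr EVs, and 219, 241 and 219 with CrOE EVs. No groups overlapped, and the order was Untreated, shCon EV, shCr EV and CrOE EV from low to high. The log2 fold changes against Untreated cells were 0.53 with shCon EVs (SE 0.056, adjusted p = 1.3e-05, edgeR), 0.75 with shCr EVs (SE 0.056, adjusted p = 4.8e-07) and 1.14 with CrOE EVs (SE 0.057, adjusted p = 1.0e-09). CrOE EVs gave 1.53-fold the level of shCon EVs (adjusted p = 5.0e-07, edgeR) and 1.30-fold that of shCr EVs (adjusted p = 3.8e-05). The step from shCon to shCr EVs was 1.17-fold (adjusted p = 0.024, edgeR). That call was lost without shCon EV replicate 1 (adjusted p = 0.13), shCon EV replicate 2 (0.094) or shCr EV replicate 2 (0.052), without a filter on low counts (0.063) and in a fit restricted to the 2 groups (0.058). Of the 31-base stretches in Plin2 transcripts, 5.05% occur in other genes.

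Adipoq, the gene of the fat-cell hormone adiponectin, and Cd36, a fatty acid transporter of fat cells, macrophages and endothelium, gave almost no reads. Adipoq had 1, 1 and 0 counts in Untreated cells, 0, 0 and 1 with shCon EVs, 0, 1 and 1 with shCr EVs, and 1, 0 and 2 with CrOE EVs. Cd36 had 1 count in Untreated replicate 1, 1 in CrOE EV replicate 1 and 0 in the other 10 libraries. A count of 0 allows up to 3 counts, or 0.0795 to 0.114 CPM depending on the library, and this limit covers counting error only. Both genes were at or under that floor in all groups, so a difference was not detectable at this depth and no fold is given.

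**Figure D2:**
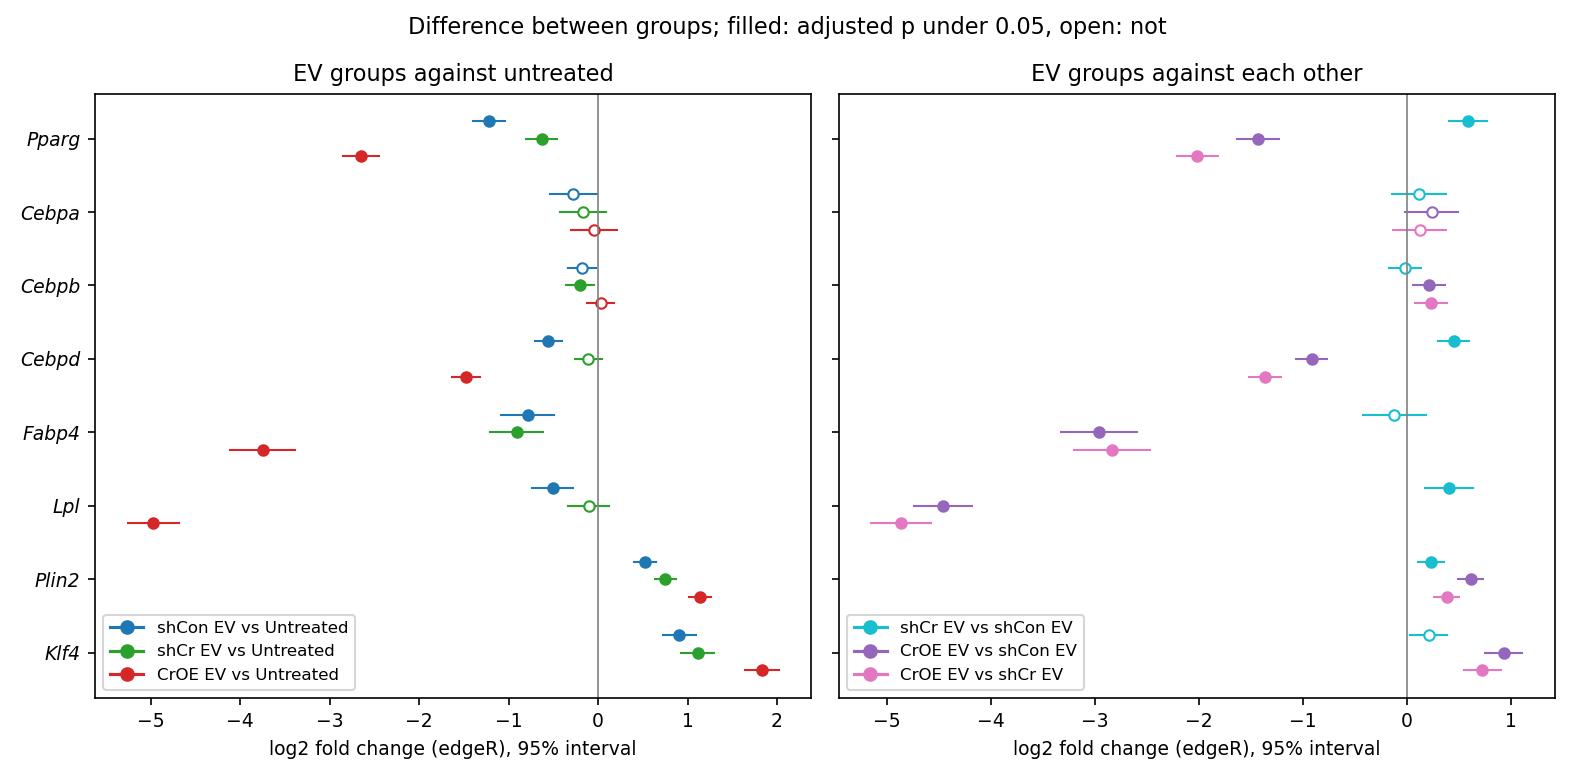
Log2 fold change from edgeR (horizontal axes) of the 8 tested genes, with 95% intervals, for each EV group against Untreated cells (left) and for EV groups against each other (right). Filled points have an adjusted p under 0.05; Lpl and Fabp4 lie farthest to the left in the CrOE EV comparisons, and all points of Cebpa are open.

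A wider list of 83 further genes, none of them a member, held other regulators, inhibitors and lipid genes of the programme. Gpat3 was found under its older symbol Agpat9, and 64 of the 83 passed the filter. With shCon EVs 26 passed against Untreated cells (15 higher and 11 lower), with shCr EVs 27 (17 higher and 10 lower) and with CrOE EVs 48 (19 higher and 29 lower). These are 40.6%, 42.2% and 75.0% of the tested list, close to the shares of all genes given above, and the list medians were 0.043, 0.0088 and -0.20 on the log2 scale. Calls between shCr and shCon EVs numbered 11 (9 higher and 2 lower with shCr EVs), a share of 17.2% against 8.73% of all genes. That count was 5 without any 1 of the shCon EV replicates and 7 without shCr EV replicate 2.

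Of 18 tested regulators of fat-cell formation, listed apart from the inhibitors below, 5 were called with shCon EVs (1 higher and 4 lower). With shCr EVs 7 were called (3 higher and 4 lower) and with CrOE EVs 14 (6 higher and 8 lower). Those counts are 27.8%, 38.9% and 77.8% of the list, against 38.1%, 37.3% and 73.7% of all genes. Their median log2 fold changes were -0.16, -0.10 and -0.13. Rxra, the DNA-binding partner of PPARγ, was at 242 ± 2.67 CPM in Untreated cells, 235 ± 3.78 with shCon EVs, 232 ± 18.3 with shCr EVs and 77.7 ± 4.47 with CrOE EVs (SD, n = 3). It fell only in the last group (log2 fold change -1.64, adjusted p = 7.0e-11, edgeR), and it was also lower there than with shCon EVs (-1.60, adjusted p = 1.1e-10) and shCr EVs (-1.58, adjusted p = 9.8e-11). Stat5a, a signal-responsive factor upstream of Pparg, fell from 53.9 ± 2.78 CPM to 33.4 ± 0.427, 29.6 ± 4.40 and 9.11 ± 0.168 with shCon, shCr and CrOE EVs, with log2 fold changes of -0.69, -0.86 and -2.56 (adjusted p = 5.5e-05, 7.7e-06 and 6.4e-11, edgeR). Ppargc1a, a coactivator of PPARγ known from brown fat, rose from 5.40 ± 0.805 CPM to 9.44 ± 0.359, 14.1 ± 0.171 and 10.8 ± 0.820 (log2 fold changes 0.80, 1.38 and 1.00, adjusted p = 6.1e-05, 4.1e-07 and 1.3e-06, edgeR), and it was 1.49-fold higher with shCr than with shCon EVs (adjusted p = 0.0025, edgeR). Srebf1, which drives fatty acid synthesis genes, passed in no comparison with Untreated cells (adjusted p = 0.28, 0.054 and 0.054 with shCon, shCr and CrOE EVs, edgeR). Stat5a shares 11.7% of its 31-base stretches with other genes.

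Among 16 tested inhibitors, 9 were called with shCon EVs (6 higher and 3 lower), 7 with shCr EVs (5 higher and 2 lower) and 13 with CrOE EVs (5 higher and 8 lower). As shares of the list these are 56.2%, 43.8% and 81.2%, against 38.1%, 37.3% and 73.7% of all genes. The medians of this list were 0.13, 0.020 and -0.33 on the log2 scale. Ddit3 encodes CHOP, a stress-induced C/EBP relative that blocks C/EBP dimers from binding DNA. Ddit3 rose from 30.7 ± 3.34 CPM to 70.6 ± 3.33, 67.8 ± 5.97 and 356 ± 13.8 with shCon, shCr and CrOE EVs (SD, n = 3; log2 fold changes 1.20, 1.14 and 3.54, adjusted p = 2.7e-07, 3.7e-07 and 1.7e-12, edgeR). Dlk1, the preadipocyte surface protein that holds back differentiation, moved the other way, from 295 ± 21.0 CPM to 172 ± 5.32, 201 ± 8.37 and 47.4 ± 2.86 (log2 fold changes -0.78, -0.56 and -2.64, adjusted p = 1.0e-06, 1.8e-05 and 2.0e-12, edgeR). Gata2, a factor of the preadipocyte state, fell from 14.1 ± 0.971 CPM to 9.81 ± 0.218, 8.37 ± 1.12 and 9.43 ± 0.642 (adjusted p = 0.0011, 6.9e-05 and 0.00014, edgeR). Exons of Ddit3 overlap genes on the opposite strand.

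Of 18 tested genes of fatty acid uptake, triglyceride assembly and droplets, 5 were called with shCon EVs (3 higher and 2 lower), 6 with shCr EVs (4 higher and 2 lower) and 14 with CrOE EVs (7 higher and 7 lower). The shares called were 27.8%, 33.3% and 77.8%, against 38.1%, 37.3% and 73.7% of all genes. The list medians were 0.079, 0.048 and 0.32 (log2). Gpat3, which makes the first intermediate of triglyceride assembly, rose from 0.794 ± 0.0915 CPM to 2.02 ± 0.117, 1.91 ± 0.283 and 9.71 ± 0.778 with shCon, shCr and CrOE EVs, 12.2-fold in the last (adjusted p = 1.4e-10, edgeR). Its exons overlap genes on both strands, so its count is uncertain. Gpat4, which catalyses the same step, rose only with CrOE EVs, from 142 ± 2.99 to 420.2 ± 6.58 CPM, and was also higher there than with either of the other EVs (log2 1.46 and 1.51, adjusted p = 9.4e-12 and 5.9e-12, edgeR). Vldlr, a lipoprotein receptor that works beside lipoprotein lipase, rose from 31.7 ± 2.05 CPM to 69.9 ± 1.89, 64.8 ± 5.24 and 76.5 ± 3.32 (log2 fold changes 1.14, 1.03 and 1.27, adjusted p = 9.7e-08, 2.0e-07 and 2.5e-09, edgeR). Plin4, a droplet coat protein of fat cells, was at 25.7 ± 1.65 CPM in Untreated cells, 27.5 ± 0.223 and 25.2 ± 5.72 with shCon and shCr EVs, and 4.27 ± 0.465 with CrOE EVs (log2 fold change -2.59, adjusted p = 5.4e-09, edgeR), the opposite direction to Plin2. Plin4 overlaps an opposite-strand gene.

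**Figure D3:**
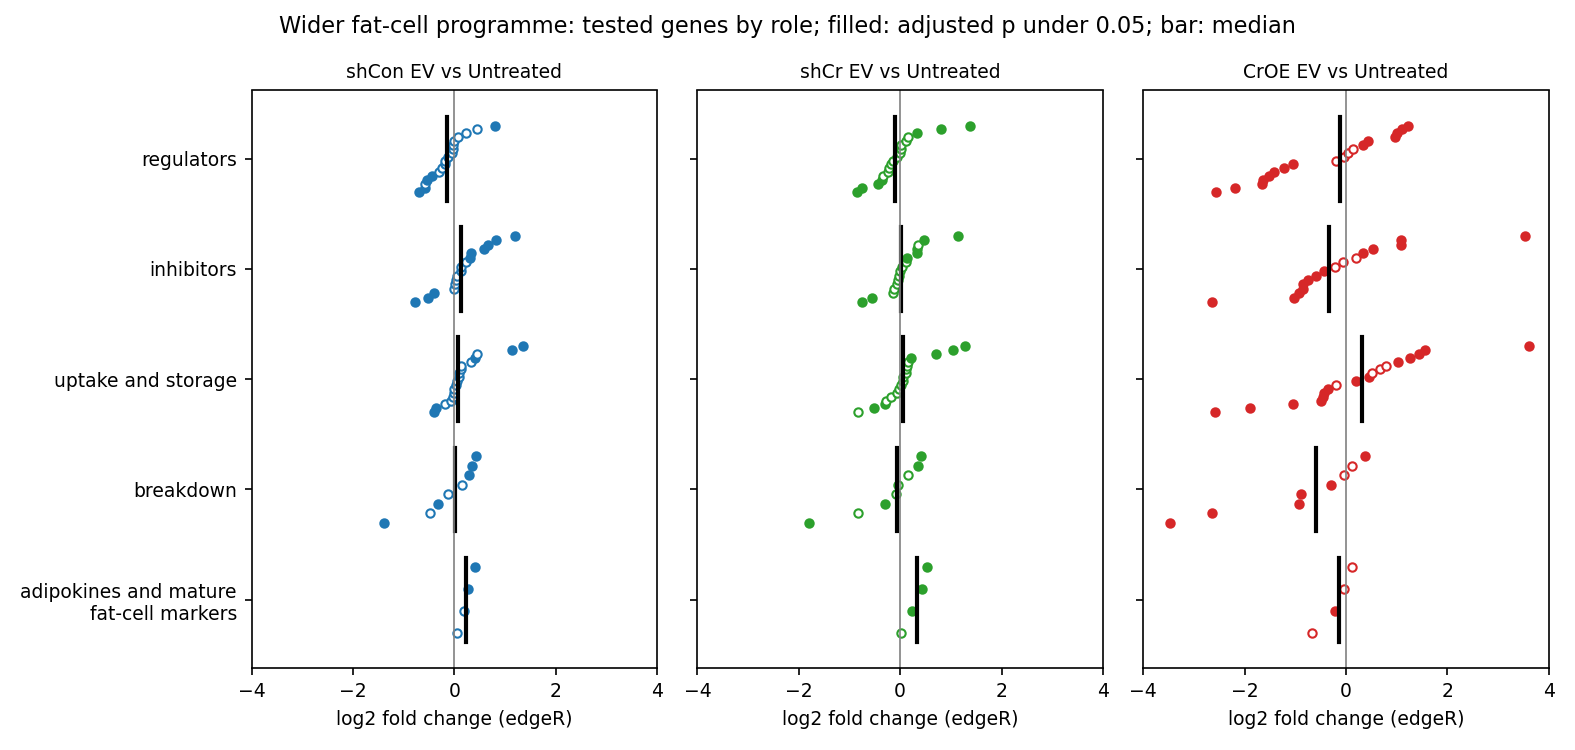
Log2 fold change against Untreated cells (horizontal axes) of the 64 tested genes of the wider programme, in rows by role and in 1 panel per EV group. Each point is a gene, filled where the adjusted p is under 0.05, and bars are row medians; points spread widest with CrOE EVs, with Ddit3 and Gpat3 beyond 3.5 and Angptl4 near -3.5.

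Of 8 genes of lipid breakdown and its control, 5 were called with shCon EVs (3 higher and 2 lower), 4 with shCr EVs (2 higher and 2 lower) and 6 with CrOE EVs (1 higher and 5 lower). These make 62.5%, 50% and 75.0% of the list, against 38.1%, 37.3% and 73.7% of all genes. The log2 medians were 0.018, -0.066 and -0.60. Angptl4, a secreted inhibitor of lipoprotein lipase and a known PPAR target, fell from 21.8 ± 3.97 CPM to 8.34 ± 0.234, 6.32 ± 1.81 and 1.98 ± 0.232 with shCon, shCr and CrOE EVs (SD, n = 3; log2 fold changes -1.39, -1.80 and -3.46, adjusted p = 5.0e-05, 5.9e-06 and 4.9e-09, edgeR). The enzyme Lpl and its inhibitor Angptl4 thus both fell with shCon and CrOE EVs.

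Markers of the mature fat cell were nearly silent throughout. Of 9 such markers 0 passed the filter, and their summed level was 0.331 to 0.439 CPM in Untreated libraries, 0.0721 to 0.322 with shCon EVs, 0.212 to 0.449 with shCr EVs and 0.222 to 0.477 with CrOE EVs. In those groups 2, 4, 3 and 3 of the 9 had 0 counts throughout. Cidec, a droplet fusion protein, and Lep, the leptin gene, had 0 counts in all 12 libraries, and Plin1, the fat-cell perilipin, had at most 10 in a library. Defining markers of the mature fat cell were thus at or near 0 in every group, and the name of the gene set describes its genes. Among adipokines and related genes 4 of 12 were tested; 2 were called higher with shCon EVs and 3 with shCr EVs, and 1 was called lower with CrOE EVs. With so few tested, these 50%, 75.0% and 25.0% stand beside 38.1%, 37.3% and 73.7% of all genes.

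Endothelial markers, which matter because Fabp4 and Cd36 are also endothelial genes, summed to 0.625 to 1.06 CPM in Untreated libraries, 1.23 to 1.37 with shCon EVs, 1.03 to 1.64 with shCr EVs and 2.47 to 2.62 with CrOE EVs. Of these 6 markers 3 passed the filter, and all 3 were called higher with CrOE EVs than in Untreated cells: Tek 5.22-fold (adjusted p = 1.6e-05, edgeR), Kdr 2.91-fold (0.0032) and Pecam1 2.26-fold (0.0087). Kdr was also called higher with shCon EVs (4.02-fold, adjusted p = 0.0012, edgeR) and shCr EVs (5.53-fold, 0.00015). These 3 genes had at most 43 counts in a library, and the other markers, Cdh5, Tie1 and Emcn, had at most 8, 7 and 3. Epithelial markers summed to 1.14 to 1.69 CPM in Untreated libraries, 0.966 to 1.26 with shCon EVs, 0.987 to 1.51 with shCr EVs and 2.39 to 3.30 with CrOE EVs. Cldn4 had 0 counts in Untreated libraries and was at 1.15 ± 0.130 CPM with CrOE EVs (SD, n = 3). In those 2 groups Krt18 was at 0.346 ± 0.0520 and 0.849 ± 0.310 CPM, and Krt19 at 0.942 ± 0.299 and 0.621 ± 0.138. Epcam had 0 counts in all 12 libraries, and Cdh1 and Krt8 had at most 7 in a library. The part of either in the results was not tested.

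The genes whose pattern lay closest to a member were found by the root mean square difference of centred log2 CPM over the 12 libraries, among the 11565 genes whose average log2 CPM was 1 or more. For Pparg these were S100a11 and Thbd, at 0.173 and 0.174. Thbd, the thrombomodulin gene, was at 63.3 ± 1.44 CPM in Untreated cells, 30.6 ± 1.06 with shCon EVs, 43.1 ± 2.20 with shCr EVs and 8.58 ± 0.311 with CrOE EVs, the order seen for Pparg. Trib2 and Fbln1 lay closest to Fabp4 (0.152 and 0.171), and Thbs2 lay close to Lpl (0.162). Thbs2, a matrix thrombospondin, went from 2849 ± 81.9 CPM in Untreated cells to 2305 ± 36.5, 3224 ± 122 and 96.4 ± 8.47 with shCon, shCr and CrOE EVs. Plin2 was nearest to Ftl1, a ferritin subunit gene (0.0798), and Slc16a10 (0.0901), Klf4 to Sco2 (0.125) and Slc20a1 (0.129), and Cebpd to Tmem53 (0.0964) and Ccdc85b (0.106). The flat profiles of Cebpa and Cebpb had close neighbours in Prepl and Ttc19 (0.0691 and 0.0726) and in Gnl1 and Akt1 (0.0459 and 0.0489). This measure describes these 12 libraries, which share their 4 groups.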

How the data were processed

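The labels' protocols describe 3T3 RNA from a column kit with DNase digestion and directional poly(A) libraries. Estimated counts for the 12 libraries, 39.8% of them not whole, were deposited by the authors in 1 table with a row per symbol. featureCounts and the build mm39 are named in the submitters' processing notes; the aligner, annotation and strand setting are not given in the sources used here. Values were rounded because the count test needs whole numbers; the planned test was otherwise kept.

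Genes were kept by filterByExpr (14279), scaled by TMM and tested by quasi-likelihood F-tests of edgeR 4.0.16 in R 4.3.3, with all 12 libraries in one model of 4 group means, 8 residual degrees of freedom and Benjamini-Hochberg adjustment over all genes; a call is an adjusted p under 0.05. Common dispersion was 0.00793. SEs and 95% intervals derive from the F statistic. DESeq2 1.42.0 was an alternative, beside other scalings, filters, a replicate block, 2-group models and leaving out each library. The script was tested on simulated data in which few genes changed, and only in the CrOE EV group. That simulation does not cover a setting such as the real CrOE EV comparisons, where most genes were called.

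The members and lists were chosen with earlier results of these data known. Programme genes were named by a rule: per EV group, the 3 largest called rises and falls whose libraries did not overlap and whose average log2 CPM was 1 or more, and Rxra, Srebf1, Dlk1, Plin1, Cidec and Lep always. Promoter windows are RefSeq's on GRCm38.p6, which is not the build named for the counts. GENCODE M21, also GRCm38, gave exon overlaps and 31-base stretches shared with other genes. Of the genes nearest in pattern to a member, 1 is not reported here.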

Additional observations from a re-analysis of the deposited data

How the results depend on the processing

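Over the 576 recomputed log2 fold changes of the 8 tested genes, 546 kept their direction and their side of the threshold, 16 lost a call, 7 gained one and 7 changed sign, none of the last being a call. For Cebpa with CrOE EVs against Untreated cells the log2 value turned to 0.024 without Untreated replicate 3 and 0.0011 without CrOE EV replicate 3 (range over left-out libraries -0.14 to 0.024). For Cebpb in that comparison it turned to -0.0059 with at least 10 counts in every library, and to between -0.0076 and -0.0054 without Untreated replicate 1, Untreated replicate 3 or CrOE EV replicate 2 (-0.0061), with 0.093 the highest value over left-out libraries. For Cebpb with shCr against shCon EVs it turned to 0.038 without shCr EV replicate 1, the lowest value over left-out libraries being -0.057. Counts of calls stayed within 1.5 times except for shCr against shCon EVs. A model of only these 2 groups gave 641 genes against 1247, 2 of the 8 members against 4, and 5 programme genes against 11. Leaving out 1 library gave 632 to 1396 genes, 2 to 5 members and 5 to 10 programme genes; fewer samples enter these fits. The libraries that moved these counts were shCon EV replicates 1 to 3 (688, 632 and 666 genes) and, for programme genes, shCr EV replicate 2 (7).

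Replicate numbers are shared between groups, but same-numbered libraries deviated together in only 5 of 18 pairs (r over 0.1; range -0.20 to 0.32), and 1 of 12 libraries correlated best with its own number in every other group, so the numbers were not taken as pairs. With the replicate block, 7, 5 and 6 members were called after shCon, shCr and CrOE EVs against Untreated cells, and 4, 7 and 7 between EV groups. Genes at the floor, such as Adipoq and Cd36, are limited by depth.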
